A study of Mus musculus with 8 samples.

Results

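SNARE proteins are the membrane fusion machinery of the cell, and 39 gene symbols of SNAREs and their partners were examined here in mouse kidney. The rule for the list is gene family, with no measured value in it, but the list was chosen with earlier results of these data known. It holds 7 VAMPs, 4 genes of the SNAP-25 family, the syntaxins and Vti1 genes, the SNAREs of the endoplasmic reticulum and Golgi, 2 Sec1/Munc18 genes, and Nsf with its adaptors. Of the 39 symbols, 37 had a row among the 77981 genes of the expression table, and Vamp7 and Stx10 were not analysed here. Of the 37, 35 averaged 1 TPM or more and were tested. Snap25 and Stx19 did not pass this filter.

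Membrane fusion needs a bundle of 4 SNARE helices, of which 1 comes from the vesicle and the others from the target membrane. The vesicle SNARE (an R-SNARE, usually a VAMP) carries an arginine in the central layer of the bundle, and the target SNAREs (syntaxins and relatives of SNAP-25) carry glutamines. Sec1/Munc18 proteins clasp syntaxins and guide assembly, and the ATPase NSF with its SNAP adaptors pulls used bundles apart. In principal cells of the collecting duct, vasopressin acts through cyclic AMP to bring vesicles with the water channel aquaporin-2 to the apical membrane, and Vamp2, Vamp3, Vamp8, Snap23, Stx3, Stx4a and Stxbp2 are among the fusion genes linked to that traffic.

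The samples were 8 RNA libraries from kidney, labelled as IMCD cells, the inner medullary collecting duct. The genotype was AVP-flox in 4 libraries, where the vasopressin gene Avp is floxed by loxP sites set into intron 1 and past the 3' end, and AVP-flox;Cre in the other 4, which carry a Cre recombinase as well. The treatment was Tamoxifen, which activates inducible forms of Cre, in all 8, so both groups share the drug and the floxed allele, and no library has Cre without floxed Avp. The labels do not give the promoter of the Cre, the age of the mice or whether each replicate is a separate animal, and if replicates share an animal, p-values measure the spread between these libraries only.

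The values are TPM, a share of all transcripts in a library, which are scaled for transcript length and so allow levels of different genes to be compared. Depth is unknown, because TPM keeps no read number. AVP-flox;Cre 2 had 33576 genes with a value above 0, and the remaining 7 libraries had 50951 to 58232. The targeted gene Avp lay between 0 and 0.27 TPM in all 8 libraries, a level in kidney that does not check the genotype. Aqp2, which encodes aquaporin-2 and marks principal cells, was at 14915 to 18131 TPM in AVP-flox and 5443 to 7036 TPM in AVP-flox;Cre. Markers of other cell types are given as summed TPM, AVP-flox first, with sums that were not tested. The 8 papillary surface markers summed to 1797 to 2820 and 5012 to 5762 TPM (6 higher, 1 lower of 8 tested). Psca makes up most of that sum, with means of 2059 and 4836 TPM, and the 1 lower was Trp63 (10.8 and 5.71 TPM). The 7 fibroblast and smooth muscle markers summed to 134 to 183 and 275 to 349 TPM (4 higher of 7). Both sums were higher in every AVP-flox;Cre library. The 10 intercalated cell markers summed to overlapping ranges of 263 to 398 and 385 to 514 TPM (5 higher of 9). The 6 endothelial markers summed to 2240 to 2328 and 1834 to 1909 TPM, with 2 higher (Kdr and Tek) and 2 lower (Pecam1 and Emcn), and Emcn alone went from 705 to 362 TPM. The 12 collecting duct markers summed to 20675 to 24381 and 12522 to 14635 TPM, with 5 higher and 4 lower, and Aqp2 makes up most of that sum in AVP-flox. The proximal tubule sum ran from 42.8 to 678 TPM in AVP-flox and 94.6 to 247 TPM in AVP-flox;Cre (0 of 6 past the threshold, Slc5a12 and Cubn averaging under 1 TPM). The thick limb and distal tubule sum ran from 341 to 2122 and 535 to 774 TPM (1 higher of 5, Cldn16), so AVP-flox libraries varied widely in both. Umod was at 1404.27, 187.74, 1139.07 and 1161.98 TPM in AVP-flox and 377.34 to 521.04 TPM in AVP-flox;Cre. Slc12a1 was at 682.39, 98.26, 576.66 and 623.58 TPM and at 97.29 to 189.66 TPM. For both genes every AVP-flox library but AVP-flox 2 lay above all of AVP-flox;Cre, and neither passed the threshold (limma adjusted p = 0.343 and 0.0876). The leukocyte sum ran from 170 to 417 and 243 to 427 TPM (1 higher of 7, Itgam and Cd3e averaging under 1 TPM). Among 8 neuronal markers, Snap91, Syt1, Syn1, Nefl, Th and Slc17a7 averaged under 1 TPM. Whether these other cells had a part in the differences below was not tested, and in bulk RNA fewer cells of a type cannot be told apart from less RNA per cell.

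Between genotypes, 7 of the 35 tested members (20%) changed. Vamp2, Vamp3, Stx2 and Stx5a were higher in AVP-flox;Cre, and Snap47, Gosr1 and Napg were lower, by limma on log2(TPM + 1) with p-values adjusted by Benjamini-Hochberg across the 19043 tested genes and called at an adjusted p under 0.05. The background was 27.3% of all tested genes, 13.1% higher and 14.2% lower. Among genes averaging 10 TPM or more it was 38.2%, against 7 of 33 members (21.2%). No member differed by 2-fold or more, while 1071 genes (5.62% of those tested) changed by at least that much. The median size of the log2 fold change was 0.15 for members and 0.29 for all tested genes (0.25 for those of at least 10 TPM), and the median signed value was -0.01 for both. The median SE of the log2 fold change was 0.09 for members and 0.16 for all tested genes. The groups did not overlap in TPM for 9 of the 35 members (25.7%), against 29.5% of all tested genes. These 9 were 6 of the changed members (all but Vamp3) together with Vamp8, Gosr2 and Napa.

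**Figure D1:**
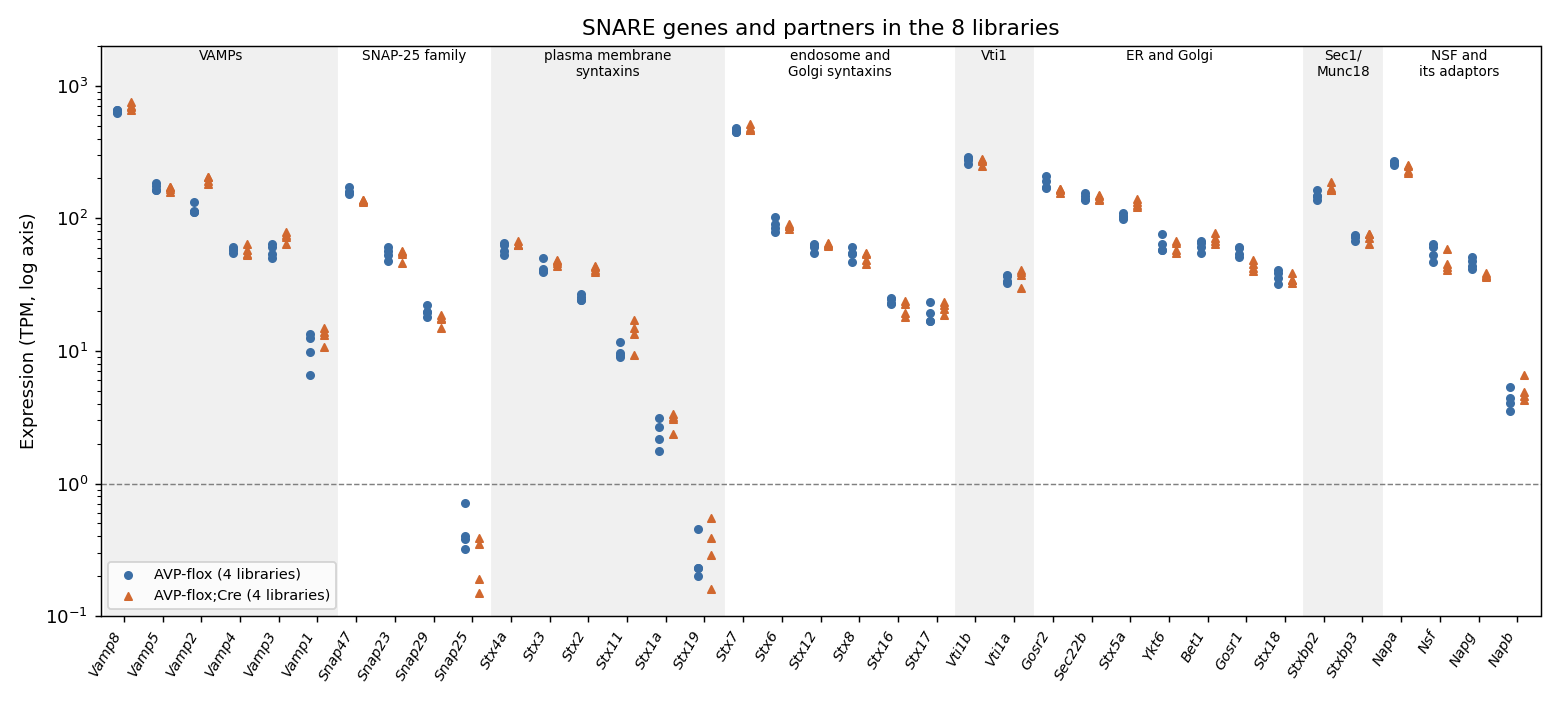
Expression of the 37 members with a row, in TPM on a log axis, grouped by role; circles are the 4 AVP-flox libraries, triangles the 4 AVP-flox;Cre libraries, and the dashed line marks the filter at 1 TPM. Vamp8 and Stx7 stand highest, Snap25 and Stx19 lie under the line, and for most members the groups overlap.

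**Figure D2:**
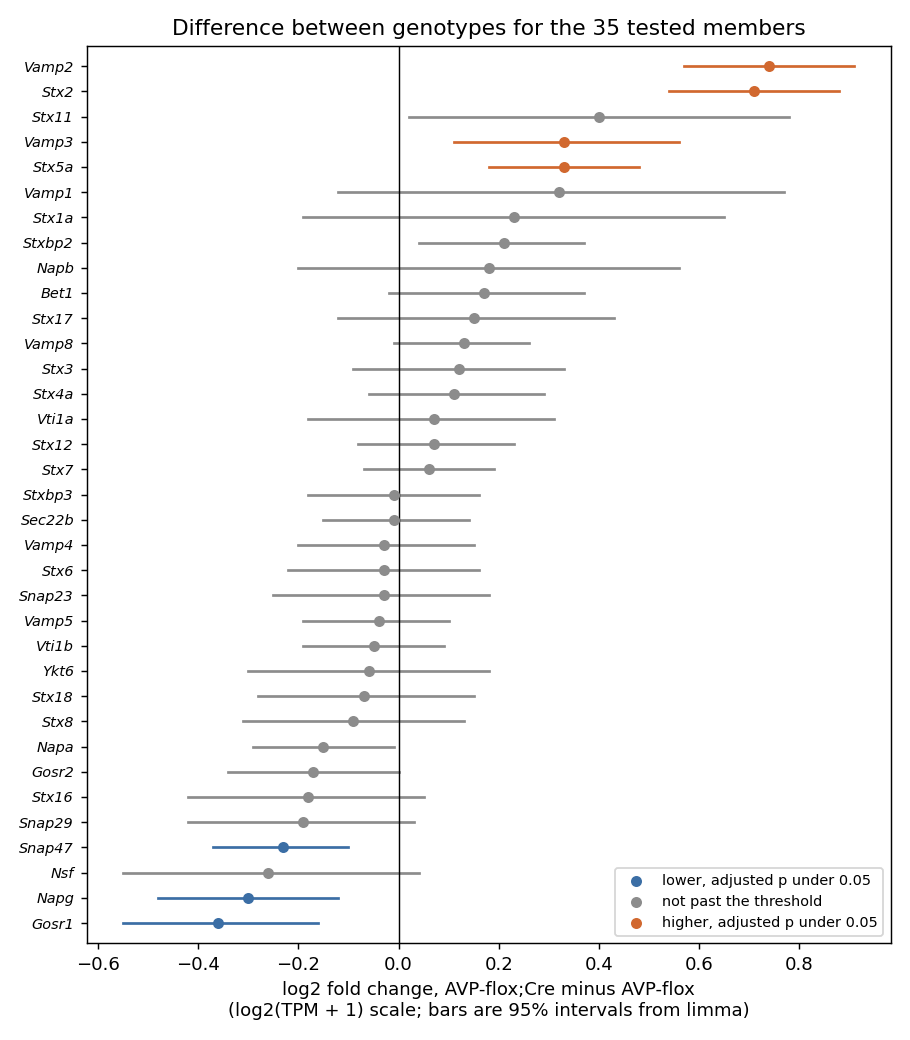
Log2 fold change of each tested member, AVP-flox;Cre minus AVP-flox on the log2(TPM + 1) scale, with its 95% interval from limma; coloured points had an adjusted p under 0.05. Vamp2 (0.74) and Stx2 (0.71) lie apart from the other members, and Gosr1 (-0.36) is lowest.

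SNAREs share the helix that enters the bundle. The coding stretch around the central layer is printed for the VAMPs and syntaxins on which the results turn, 51 bases each from GENCODE M21 transcripts, with the codon of the central arginine or glutamine in capitals. The arginine codon is number 56 in Vamp2 and the glutamine codon is number 226 in Stx2, counted from the start codon.
Vamp2: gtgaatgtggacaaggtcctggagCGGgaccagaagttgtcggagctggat
Vamp1: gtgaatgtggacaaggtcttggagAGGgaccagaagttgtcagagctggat
Vamp3: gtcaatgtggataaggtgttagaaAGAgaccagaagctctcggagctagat
Vamp8: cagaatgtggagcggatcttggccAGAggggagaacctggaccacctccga
Stx2: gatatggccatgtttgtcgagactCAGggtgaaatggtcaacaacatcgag
Stx3: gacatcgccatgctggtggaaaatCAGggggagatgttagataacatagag
Stx4a: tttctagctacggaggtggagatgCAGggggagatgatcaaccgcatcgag
Stx5a: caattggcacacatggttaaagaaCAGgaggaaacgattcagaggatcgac
Vamp1 shares 48 of the 51 bases with Vamp2, Vamp3 shares 40 and Vamp8 shares 26. Stx3 shares 37 bases with Stx2, Stx4a shares 34 and Stx5a shares 26. Reads are 50 bases long, so near copies could exchange reads. None of the 2156 runs of 50 bases in the Vamp2 transcript and none of the 2890 in Stx2 occurs in a transcript of another gene, and 16 of 2071 (0.773%) in Vamp3 do. Stxbp3 shares 503 of 2370 (21.2%) with the pseudogene Stxbp3-ps, so its level is uncertain.

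Among the VAMPs, 2 of 6 tested members rose and none fell, against 13.1% higher and 14.2% lower of all tested genes. This count and those of the other families below are small and were not tested against that share. Vamp2 (ENSMUSG00000020894), the R-SNARE of synaptic vesicles that is also found on aquaporin-2 vesicles, was at 111.64, 113.37, 111.58 and 133.42 TPM in AVP-flox 1 to 4 and at 182.95, 205.66, 192.13 and 205.46 TPM in AVP-flox;Cre 1 to 4. Every AVP-flox;Cre library lay above every AVP-flox library, with AVP-flox 4 the highest of its group. The mean rose from 118 ± 10.6 to 197 ± 11.1 TPM (SD, n = 4), which is 1.67-fold, with a log2 fold change of 0.74 (SE 0.08, limma adjusted p = 1.75e-04). An exact two-sided permutation test of the means gave p = 0.0286, the lowest value possible with 4 libraries a group. The neuronal markers summed to 8.8 to 15.6 TPM in AVP-flox and 4.19 to 14.4 TPM in AVP-flox;Cre, with 6 of 8 averaging under 1 TPM. Of 2 tested, 1 was lower, Tubb3, with means of 5.06 and 0.747 TPM. Syt1, under the filter, was at 0.12 to 0.32 TPM in AVP-flox and 0.53 to 1.39 TPM in AVP-flox;Cre, groups that did not overlap. Whether nerve endings had a part in the Vamp2 difference was not tested.

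Vamp3 (ENSMUSG00000028955), or cellubrevin, the close relative of Vamp2 on recycling endosomes, was at 64.51, 61.32, 53.55 and 50.57 TPM in AVP-flox and 72.51, 63.63, 78.96 and 75.34 TPM in AVP-flox;Cre. The groups overlapped, because AVP-flox;Cre 2 lay below AVP-flox 1. The mean rose from 57.5 ± 6.52 to 72.6 ± 6.54 TPM (1.26-fold, log2 fold change 0.33, SE 0.10, limma adjusted p = 0.0318; exact permutation p = 0.0571). This call was lost in 10 of 24 alternatives, among them leaving out AVP-flox 3 (limma adjusted p = 0.0863) or AVP-flox 4 (0.0785). Leaving out replicate 1, 3 or 4 of AVP-flox;Cre gave adjusted p-values of 0.0632, 0.0869 and 0.0709 by limma.

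Vamp8, which serves late endosomes, lysosomes and regulated exocytosis, was the most abundant member and ranked 170 among all genes in AVP-flox. Its values were 623.36, 657.19, 638.97 and 653.05 TPM in AVP-flox and 703.26, 759.48, 658.10 and 695.38 TPM in AVP-flox;Cre. The groups did not overlap, but AVP-flox 2 and AVP-flox;Cre 3 differed by less than 1 TPM, and the difference missed the threshold (log2 fold change 0.13, 95% interval -0.01 to 0.26, limma adjusted p = 0.144; exact permutation p = 0.0286). Vamp5, first described in muscle, was at 172 ± 9.78 and 167 ± 7.13 TPM, and Vamp4 of the trans-Golgi network at 58.0 ± 2.68 and 57.1 ± 4.86 TPM in AVP-flox and AVP-flox;Cre. Vamp1, the neuronal paralog of Vamp2, was low at 10.6 ± 3.08 and 13.2 ± 1.81 TPM, with an interval from -0.12 to 0.77 on the log2 scale.

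Summed over the 6 VAMPs, expression was 1032 to 1094 TPM in AVP-flox and 1166 to 1252 TPM in AVP-flox;Cre. Vamp2 made up 11.1 ± 0.746% of the AVP-flox sum and 16.2 ± 0.634% of the AVP-flox;Cre sum. Vamp8 held 60.8 ± 0.895% and 58.1 ± 1.99%, and Vamp5 16.2 ± 0.473% and 13.8 ± 0.845%. Among these 6, which leave out Vamp7, Vamp8 thus remained the main transcript in all 8 libraries. Vamp2 passed Vamp5 as the next in order in each AVP-flox;Cre library.

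**Figure D3:**
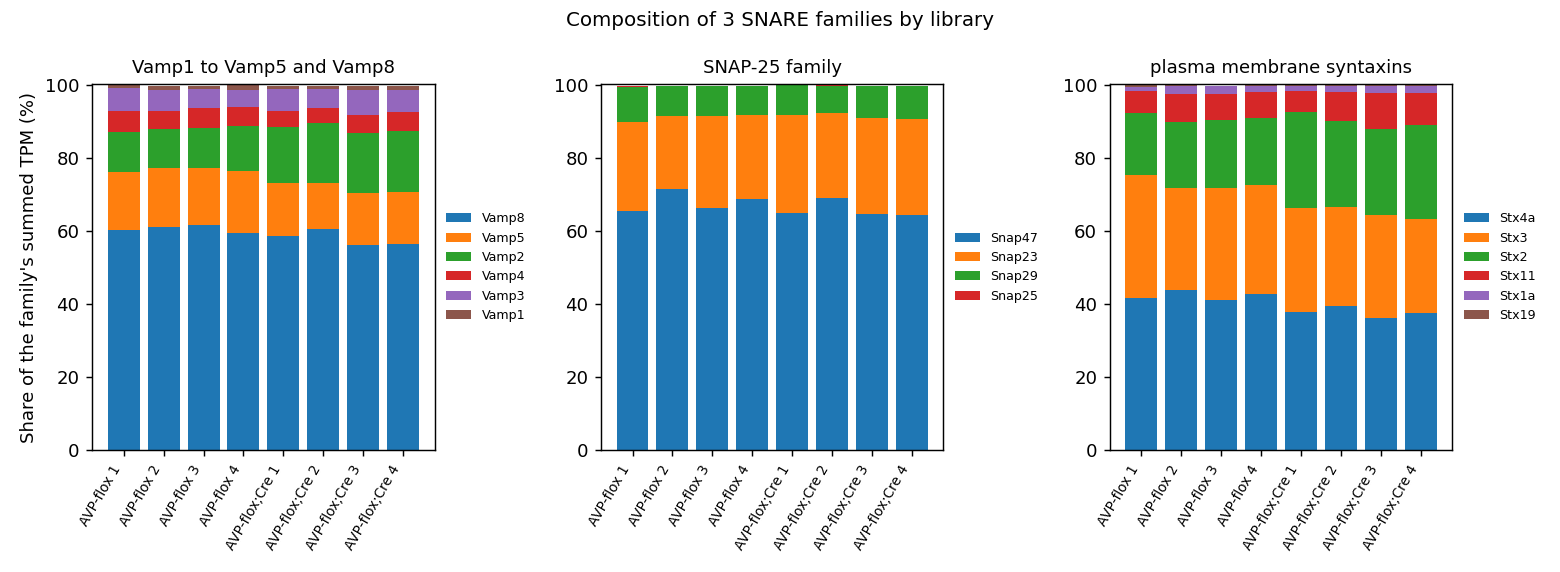
Share of each gene in the summed TPM of its family, in percent, for each of the 8 libraries; the panels are the VAMPs, the SNAP-25 family and the plasma membrane syntaxins. The Vamp2 band is 10.6 to 12.2% in AVP-flox libraries and 15.3 to 16.7% in AVP-flox;Cre libraries, and the Stx2 band is 17 to 18.7% and 23.4 to 26.3%.

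The syntaxins of the plasma membrane are the partners these VAMPs meet. Of 5 tested, Stx2 rose and 4 were not past the threshold. Stx2 (ENSMUSG00000029428), also known as epimorphin, a syntaxin of the cell surface in epithelia, was at 25.53, 26.80, 24.10 and 24.29 TPM in AVP-flox and 43.91, 39.58, 40.80 and 43.10 TPM in AVP-flox;Cre. The groups lay far apart compared with the spread within each. The mean rose 1.66-fold from 25.2 ± 1.25 to 41.8 ± 2.01 TPM (log2 fold change 0.71, SE 0.08, limma adjusted p = 1.90e-04; exact permutation p = 0.0286).

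Stx3, the apical syntaxin of many epithelia, was at 50.67, 41.45, 39.57 and 39.85 TPM in AVP-flox and 47.87, 46.12, 48.82 and 43.39 TPM in AVP-flox;Cre. AVP-flox 1 was the highest of all 8, and the other AVP-flox libraries lay below all of AVP-flox;Cre. The log2 fold change was 0.12 (95% interval -0.09 to 0.33, limma adjusted p = 0.376; exact permutation p = 0.257). Stx4a, the syntaxin found on the basolateral side of many epithelia and also reported on the apical membrane of principal cells, was at 62.54, 65.31, 53.20 and 57.18 TPM in AVP-flox and 63.17, 67.17, 63.29 and 63.49 TPM in AVP-flox;Cre. These groups overlapped at AVP-flox 2, and the log2 fold change was 0.11 (95% interval -0.06 to 0.29, limma adjusted p = 0.329; exact permutation p = 0.2). For Stx3 the interval allowed a rise of up to 1.26-fold and for Stx4a of up to 1.22-fold.

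Stx11, known from the granules of immune cells, was at 9.93 ± 1.22 and 13.7 ± 3.26 TPM, a log2 fold change of 0.40 that missed the threshold (limma adjusted p = 0.113). The lowest AVP-flox;Cre library, AVP-flox;Cre 1, lay at 9.35 TPM, and without it the value was 0.56 with a limma adjusted p of 0.0174. Stx11 passed the threshold in 2 of 24 alternatives, the other being sex as a covariate. The neuronal Stx1a was at 2.44 ± 0.592 and 3.00 ± 0.426 TPM, and Stx19 at 0.278 ± 0.116 and 0.348 ± 0.165 TPM. The family summed to 140 ± 10.6 TPM in AVP-flox and 170 ± 3 TPM in AVP-flox;Cre. Stx2 held 18 ± 0.694% of the AVP-flox sum and 24.7 ± 1.5% of the AVP-flox;Cre sum, Stx4a 42.4 ± 1.23% and 37.9 ± 1.33%, and Stx3 30.6 ± 2.45% and 27.4 ± 1.26%, so the order Stx4a, Stx3, Stx2 was the same in the means of both groups.

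The SNAP-25 family gives the other glutamine helices at the target membrane. Of 3 tested members, Snap47 fell and 2 were not past the threshold. Snap47 (ENSMUSG00000009894), a relative found on internal membranes and less well studied, was at 152.06, 171.98, 158.55 and 159.02 TPM in AVP-flox and 138.70, 137.00, 132.76 and 135.75 TPM in AVP-flox;Cre. The groups did not overlap, and the fall was small, from 160 ± 8.35 to 136 ± 2.51 TPM (1.18-fold lower, log2 fold change -0.23, SE 0.06, limma adjusted p = 0.0164; exact permutation p = 0.0286). Exons of Jmjd4 on the opposite strand cover 11.6% of the exonic bases of Snap47, and no source used here says whether the counting used strand. The limma call was lost without AVP-flox;Cre 3 (adjusted p = 0.0501).

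Snap23, the widely expressed counterpart of neuronal Snap25, was at 56.55, 47.81, 60.58 and 52.95 TPM in AVP-flox and 56.83, 45.87, 54.13 and 55.89 TPM in AVP-flox;Cre. The groups covered nearly the same range, and AVP-flox;Cre 2 was the lowest library. The log2 fold change was -0.03 with a 95% interval of -0.25 to 0.18 (limma adjusted p = 0.836; exact permutation p = 0.743). Snap29, which acts with Stx17 and Vamp8 in the fusion of autophagosomes with lysosomes, was at 19.8 ± 1.65 and 17.2 ± 1.56 TPM (adjusted p = 0.188 by limma). Snap25 itself lay between 0.15 and 0.71 TPM in the 8 libraries. By level, Snap47 was the main SNAP-25 family transcript, with 68.2 ± 2.77% of the family's AVP-flox sum and 65.9 ± 2.22% of its AVP-flox;Cre sum, against 23.2 ± 2.36% and 25.7 ± 1.69% for Snap23.

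**Figure D4:**
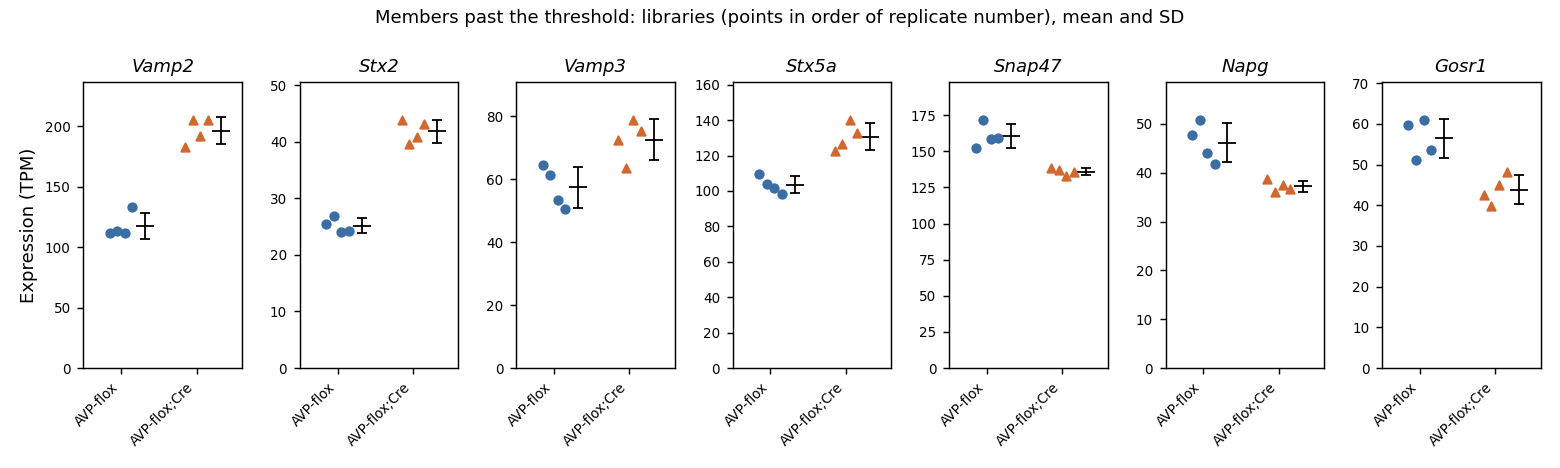
TPM of the 7 members past the threshold in each library, with points in order of replicate number and the mean and SD of 4 libraries beside them; each axis starts at 0. Vamp2 and Stx2 rose by 1.67-fold and 1.66-fold, the other 5 differed by 1.18-fold to 1.29-fold, and the groups overlap for Vamp3 alone.

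None of the 8 SNAREs of endosomes, trans-Golgi network and autophagosomes that were tested passed the threshold. The late endosomal complex is built from Stx7, Stx8, Vti1b and Vamp8, and 3 of these 4 are among the most abundant members. Stx7 was at 461 ± 15.1 TPM in AVP-flox, ranked 291 among all genes, and at 480 ± 23.2 TPM in AVP-flox;Cre (log2 95% interval -0.07 to 0.19). Vti1b was at 278 ± 13.8 and 268 ± 14.4 TPM (interval -0.19 to 0.09), though exons of Arg2 on the opposite strand cover 17.7% of its exonic bases. Stx8 was lower in level, at 54.2 ± 5.75 and 50.7 ± 4.48 TPM. Recycling endosomes use Stx12, at 60.7 ± 4.11 and 63.9 ± 1.54 TPM. The trans-Golgi SNAREs Stx6, Stx16 and Vti1a had log2 fold changes of -0.03, -0.18 and 0.07, and Stx17, the syntaxin of autophagosomes, had 0.15. The widest of these intervals, that of Stx17, ran from -0.12 to 0.43.

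In the early secretory pathway, Stx5a rose, Gosr1 fell and 5 of 7 members were not past the threshold. Stx5a (ENSMUSG00000010110, syntaxin 5), the central glutamine SNARE of the Golgi, was at 109.86, 103.95, 101.92 and 98.47 TPM in AVP-flox and 122.66, 126.74, 140.30 and 132.67 TPM in AVP-flox;Cre. All AVP-flox;Cre libraries lay above all AVP-flox libraries. Its mean rose from 104 ± 4.78 to 131 ± 7.67 TPM (1.26-fold, log2 fold change 0.33, SE 0.07, limma adjusted p = 0.00555; exact permutation p = 0.0286). Gosr1 (ENSMUSG00000010392, GS28), a partner of Stx5a in traffic within the Golgi, was at 59.78, 51.11, 61.04 and 53.68 TPM in AVP-flox and 42.51, 39.76, 44.95 and 48.20 TPM in AVP-flox;Cre. Here too the groups were apart, in the other direction, with means of 56.4 ± 4.77 and 43.9 ± 3.59 TPM (1.29-fold lower, log2 fold change -0.36, SE 0.09, limma adjusted p = 0.0149; exact permutation p = 0.0286).

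The remaining members of the early secretory pathway did not pass. Gosr2 (membrin), which acts between endoplasmic reticulum and Golgi, was at 184 ± 18 and 164 ± 4.88 TPM with groups that did not overlap (log2 fold change -0.17, limma adjusted p = 0.136). Sec22b was at 144 ± 7.92 and 144 ± 6.45 TPM, and its interval of -0.15 to 0.14 is among the narrower ones. Bet1 was at 62.0 ± 5.34 and 69.8 ± 5.64 TPM and Ykt6, a SNARE held to membranes by lipids, at 64.3 ± 8.78 and 61.3 ± 5.92 TPM. Stx18 of the endoplasmic reticulum was at 36.8 ± 3.98 and 35.1 ± 2.71 TPM, and exons of Nsg1 and Gm42858 on the opposite strand cover 32.3% of its exonic bases.

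Promoter windows were looked at because cyclic AMP, the messenger of vasopressin, acts in part through CREB, a factor whose known site is TGACGTCA with the short form TGACG. RefSeq windows on GRCm38.p6, 300 bases long and reaching 50 bases past a start, were found for 33 members (39 windows). Vamp2, Vamp3, Snap25 and Napg had no entry. Stx2 and Stx5a, which rose, have 2 windows each, and Gosr1, which fell, has 1. A window of each of these genes is printed, with TGACG or its reverse complement in capitals.
Stx2 promoter, chr5:129008523-129008822, minus strand: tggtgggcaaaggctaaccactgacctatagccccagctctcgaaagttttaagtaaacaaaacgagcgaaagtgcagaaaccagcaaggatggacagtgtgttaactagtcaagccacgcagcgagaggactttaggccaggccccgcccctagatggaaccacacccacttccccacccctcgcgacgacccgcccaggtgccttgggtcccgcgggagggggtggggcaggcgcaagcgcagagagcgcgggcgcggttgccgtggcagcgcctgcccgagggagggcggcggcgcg
Stx5a promoter, chr19:8741174-8741473, plus strand: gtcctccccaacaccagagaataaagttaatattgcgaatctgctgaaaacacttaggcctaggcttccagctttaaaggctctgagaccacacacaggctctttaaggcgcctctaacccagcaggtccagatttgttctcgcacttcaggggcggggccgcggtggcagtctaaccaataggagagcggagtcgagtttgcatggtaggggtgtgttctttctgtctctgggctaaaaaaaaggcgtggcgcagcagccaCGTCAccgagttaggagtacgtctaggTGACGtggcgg
Gosr1 promoter, chr11:76763529-76763828, minus strand: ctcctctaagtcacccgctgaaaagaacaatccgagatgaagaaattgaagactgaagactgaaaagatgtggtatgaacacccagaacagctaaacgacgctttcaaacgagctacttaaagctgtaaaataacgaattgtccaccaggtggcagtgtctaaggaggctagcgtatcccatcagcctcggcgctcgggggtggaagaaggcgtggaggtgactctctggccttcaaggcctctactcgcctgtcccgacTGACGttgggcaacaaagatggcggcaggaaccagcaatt
Neither Stx2 window holds TGACG on either strand, each Stx5a window holds 2 and the Gosr1 window 1. The window of Snap47, which also fell, holds 0 and is not printed. TGACG on either strand was in 14 of 39 member windows (35.9%), against 20.8% of all 32851 windows and 23.6% of the 21263 windows of protein-coding genes. TGACGTCA, which contains TGACG on both strands, was in 3 windows (7.69%, those of Gosr2, Napa and Stxbp3), against 1.79% of all and 2.23% of protein-coding windows. TGACGCA, which also contains TGACG, was in 2 (5.13%, Stx4a and Stx6), against 2.12% and 2.57%. The members' windows were richer in GC, with a median of 61.3% against 52.7% and 56.3%. These matches describe letters and not binding, and members with and without them were found among those that rose and fell.

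Both Sec1/Munc18 members were expressed, and neither passed the threshold. Stxbp2 (Munc18-2), the partner of Stx3 in apical exocytosis, was at 136.62, 163.63, 146.59 and 146.53 TPM in AVP-flox and 187.81, 169.33, 164.70 and 163.04 TPM in AVP-flox;Cre. The groups overlapped only by AVP-flox 2 against AVP-flox;Cre 4. The log2 fold change was 0.21 (SE 0.08, 95% interval 0.04 to 0.37, limma adjusted p = 0.0681; exact permutation p = 0.0571), and without AVP-flox 2 it passed the threshold (adjusted p = 0.0350). Stxbp2 passed in 4 of 24 alternatives, among them the threshold of 0.1. Stxbp3 (Munc18c), the partner of Stx4a, was at 72.2 ± 3.12 and 72.0 ± 5.72 TPM, with the reservation on its pseudogene given above.

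Of the disassembly genes, 1 of 4 fell. Napg (ENSMUSG00000024581), which encodes gamma-SNAP, was at 47.69, 50.88, 44.11 and 41.78 TPM in AVP-flox and 38.64, 36.02, 37.51 and 36.73 TPM in AVP-flox;Cre. All AVP-flox;Cre libraries lay lower, and they varied little. Its mean fell from 46.1 ± 4.00 to 37.2 ± 1.12 TPM (1.24-fold lower, log2 fold change -0.30, SE 0.08, limma adjusted p = 0.0208; exact permutation p = 0.0286), and this call was lost by a narrow margin without AVP-flox 1 (adjusted p = 0.0503) or AVP-flox 2 (0.0543).

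Nsf, the ATPase, was at 60.64, 63.72, 52.57 and 47.16 TPM in AVP-flox and 45.19, 43.23, 40.57 and 58.69 TPM in AVP-flox;Cre. Of the AVP-flox;Cre libraries, 3 lay below every AVP-flox library and AVP-flox;Cre 4 lay among them. The log2 fold change was -0.26 (95% interval -0.55 to 0.04, limma adjusted p = 0.182; exact permutation p = 0.143), and without AVP-flox;Cre 4 it was -0.37 (adjusted p = 0.0450). Nsf passed the threshold in that 1 alternative only, of 24. Napa (alpha-SNAP), the main adaptor, was at 263 ± 7.37 and 237 ± 14.2 TPM with groups apart (log2 fold change -0.15, limma adjusted p = 0.0996). Napb, the neuronal beta-SNAP, was at 4.34 ± 0.765 and 5.06 ± 1.01 TPM. Napa made up 83.9 ± 0.67% of the 3 adaptors in AVP-flox libraries and 84.8 ± 0.914% in AVP-flox;Cre libraries.

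Beyond the 39 symbols, 57 tested genes of SNARE-dependent fusion from 7 lists were followed, of 68 listed. Of these, 4 were higher, 13 were lower and 40 did not pass, against 13.1% higher and 14.2% lower of all tested genes. The number lower was 3 without AVP-flox 2, AVP-flox;Cre 2 and AVP-flox;Cre 4. The median log2 fold change was -0.16, and that of all tested genes was -0.01, a difference that was not tested. The 6 other SNAREs tested had no call. Among 9 other Sec1/Munc18 and syntaxin-binding genes, 1 was higher and 3 lower. Stxbp6 (amisyn), which binds target SNAREs through a VAMP-like helix, rose from 41.8 ± 4.03 to 75.8 ± 4.57 TPM by limma (adjusted p = 1.46e-04). Its log2 fold change of 0.85 (SE 0.09) was a larger value than that of any member, a difference that was not tested. The tomosyn gene Stxbp5, whose product competes with VAMPs for syntaxins, fell by limma (log2 fold change -0.57, adjusted p = 0.0407), and this call was lost in 11 of 24 alternatives.

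Of 13 regulators tested, 1 was higher and 4 lower. Snapin, named for its binding to SNAP-25, rose from 130 ± 3.69 to 173 ± 14.3 TPM (log2 fold change 0.41, limma adjusted p = 0.00265). Vapa, a VAMP-associated protein of the endoplasmic reticulum, had a log2 fold change of -0.42 (adjusted p = 0.00381) and the synaptotagmin Syt11 of -0.67 (adjusted p = 0.00468), both by limma. The tethering complexes, which bring vesicles near the membrane before SNAREs engage, are given in turn.

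In the exocyst, the tether of the plasma membrane, Exoc2 (0.36, adjusted p = 0.0287) and Exoc7 (0.27, 0.0314) were higher and Exoc3 (-0.44, 0.00345) was lower on the log2 scale by limma, with 6 of 9 subunits not past the threshold. In HOPS, the tether of late endosomes and lysosomes, and CORVET, that of early endosomes, Vps16 fell from 87.8 ± 4.39 to 62.8 ± 1.71 TPM (adjusted p = 6.82e-04 by limma) and Tgfbrap1 from 21.6 ± 1.55 to 14.6 ± 1.84 TPM (adjusted p = 0.00554), with 5 of 7 not past it. Vps54 was the 1 of 5 GARP and EARP genes to fall, and Cog1 and Cog8 fell among 8 genes of the Golgi complex COG (log2 fold changes of -0.61, -0.49 and -0.66, adjusted p = 0.0191, 0.00718 and 0.00546 by limma). The calls of Exoc2, Exoc7 and Vps54 were lost in several of the runs that left out 1 library.

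**Figure D5:**
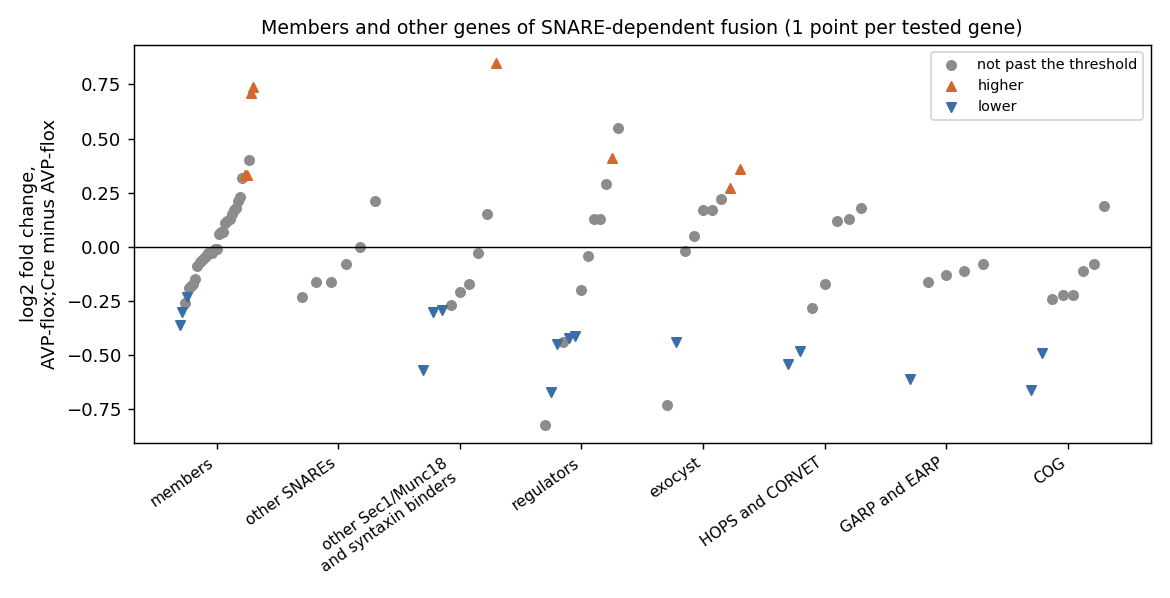
Log2 fold change, AVP-flox;Cre minus AVP-flox on the log2(TPM + 1) scale, of each tested gene among the members and the 7 lists of other fusion genes; up triangles were higher and down triangles lower with an adjusted p under 0.05. Members spread on both sides of 0, and the median of the other fusion genes together was -0.16. Called lower were 1 of 5 GARP and EARP genes and 2 of 8 COG genes, against 14.2% of all tested genes.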

How the data were processed

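RNA of 8 mouse kidney IMCD libraries was sequenced (4 AVP-flox, 4 AVP-flox;Cre, all with Tamoxifen). Per the labels' protocols, cDNA was made with the SMART-Seq HT kit, which amplifies by PCR, and reads were paired-end of 50 bp. The deposited values are TPM per gene, made by the authors. STAR and RSEM are named, without versions, in the submitters' processing notes, and genome build and annotation were not given in the sources used here. TPM keeps no read number, so depth is unknown and no counting interval is given. Columns sum to 1000000 within 2.04.

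The WT columns were taken to be AVP-flox and the KO columns AVP-flox;Cre, with their numbers as replicate numbers. Of 78298 identifiers, 21883 had no symbol, and values were summed where identifiers shared a symbol (312 symbols). In R 4.3.3, limma 3.58.1 with a mean-variance trend compared log2(TPM + 1) of genes averaging 1 TPM or more, two-sided, adjusted over all 19043. This test was tested on simulated data. Folds are ratios of mean TPM. Fold changes on the log2(TPM + 1) scale understate those of low genes. Single genes were also compared by an exact permutation test of mean TPM. Shares and motif counts are descriptions, computed in Python 3.11.15. GENCODE M21 (GRCm38), which may not be the authors' release, gave exon overlaps, shared 50-base runs, GC content and coding sequences, and RefSeq gave promoters.

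The members and lists were chosen with earlier results of these data known. Named in full were members past the threshold and Vamp2, Vamp3, Vamp8, Snap23, Stx3, Stx4a, Stxbp2 and Nsf. Up to 3 genes with the smallest adjusted p were named from each list of other fusion genes. Some results that this rule would name are not reported here. The 24 alternatives were other pseudocounts, filters, scalings, variance models, weights and covariates, a threshold of 0.1, a replicate block, a 5' GC correction, leaving out each library, and leaving out AVP-flox 2 and AVP-flox;Cre 2 and 4, which the earlier results had put in doubt.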

Additional observations from a re-analysis of the deposited data

Results flagged for a closer look

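In 4 of 74 groups of 4 libraries, 1 library lay far from the others of its group, and chance flags about 1 in 20 groups. Vamp2 in AVP-flox 4 was at 133.42 TPM, with the other AVP-flox libraries at 111.58 to 113.37 TPM, still below every AVP-flox;Cre library. Stx3 in AVP-flox 1 was at 50.67 TPM, with the others at 39.57 to 41.45 TPM. Stx4a in AVP-flox;Cre 2 was at 67.17 TPM, with the others at 63.17 to 63.49 TPM. Stx19, under the filter, was at 0.45 TPM in AVP-flox 1 and 0.20 to 0.23 TPM in the others.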

How the results depend on the processing

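Vamp2 and Stx2 kept their calls in 24 of 24 alternatives. The threshold of 0.1 is 1 of the 24, and no call can be lost under it. Gosr1 lost its call in 1, with no filter on low values (adjusted p = 0.0586), Stx5a in 2 (median-of-ratios scaling, 0.0548, and with AVP-flox 2, AVP-flox;Cre 2 and AVP-flox;Cre 4 left out together, 0.0625), Snap47 in 5, Napg in 6 and Vamp3 in 10, all by limma and all in the same direction. All 7 calls remained with sex as a covariate (3 of 8 libraries had the male pattern) and with the 5' GC correction. The 3 male libraries cannot be split evenly between the genotypes. With sex as a covariate Stx11 was called higher as well (log2 fold change 0.48, limma adjusted p = 0.041). Snap23, which had no call, changed sign without AVP-flox 3 (0.02) and without AVP-flox;Cre 2 (0.03), and its log2 fold change ran from -0.09 to 0.03 when 1 library was left out. The number of members higher, 4 as reported, was 2 with median-of-ratios scaling and 2 without those 3 libraries, and 3 to 5 when 1 library was left out. The number lower, 3 as reported, was 0 with no filter, 1 with median-of-ratios scaling and 1 without the 3 libraries, and 2 to 4 when 1 library was left out. With no filter, 67580 genes were tested. Vamp2, Stx2 and Gosr1 were called without the 3 libraries, where AVP-flox;Cre had 2 libraries.

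Of the other fusion genes, the number higher, 4 as reported, was 2 with no filter, with median-of-ratios scaling, without the mean-variance trend and without the 3 libraries, and 2 to 4 when 1 library was left out. The number lower, 13 as reported, was 7 with no filter and 3 without the 3 libraries, and 9 to 13 when 1 library was left out. The cause was not tested. Over all genes, 2491 were higher and 2713 lower, against 1766 and 1643 with no filter and 1378 and 1182 without the 3 libraries.

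Same-numbered libraries did not deviate together (correlations of 0.001, 0.015, 0.095 and 0.004 across genes), so the numbers were not taken as pairs. AVP-flox 1 to 4 correlated best with AVP-flox;Cre 2, 3, 3 and 1, so AVP-flox 3 alone matched its own number. With a replicate block, 3 members were higher and 2 lower. Vamp3 (adjusted p = 0.0725) and Napg (0.0504) were the calls lost.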
